A study of Homo sapiens with 4 samples.

Results

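The genes described here are 10 DNA repair genes, chosen by name as DNA damage kinases and homologous recombination genes, among the 2864 genes with values in the table used. They were the damage kinases ATM and ATR with the ATR partner ATRIP, the recombination genes BRCA1, BARD1 and BRCA2, the helicase genes BLM and BRIP1, and BRCC3 and BABAM1, which encode subunits of the BRCA1-A complex. RNA was sequenced from A375 cells, a human melanoma line with a mutated BRAF kinase, to look for changes that go with resistance to vemurafenib (VEM), an inhibitor of that kinase. There were 4 libraries, with 1 library per condition. A375P were untreated parental cells and A375R were a resistant strain raised from A375 in the laboratory by escalating doses and labelled as treated with vemurafenib continuously. Whether the drug was in its medium at harvest, and at which dose, is not given in the sources used here, so resistance and a presence of the drug cannot be told apart in it. A375+DMSO were A375 cells given the solvent at 1 per mille for 48 h, and A375+VEM were A375 cells given 2 μM vemurafenib for 48 h. All libraries carry the genotype label wild type and the same batch label, and nothing in the labels gives more than 1 culture per condition.

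Since each condition is 1 library, the differences below could not be set against a spread between cultures, and p-values are not given. A level is given as reads, the number of sequenced reads counted for a gene, and as TPM, which divides the count by gene length and scales each library to a fixed total, so that genes can be compared per length. Ratios of TPM carry exact 95% Clopper-Pearson intervals on the reads, which compare 2 libraries and cover counting error only. A gene was called different where the ratio of (TPM + 0.1) passed 1.5-fold up or down, provided that either library of the pair held it at 1 TPM or more. The pseudocount of 0.1 makes the change of low genes look smaller than it is. The table is an alphabetical portion of the gene list that holds 1891215 to 2054277 reads per library and 8.48 to 8.94% of each library's TPM. Of 10 melanocyte and melanoma markers, 2 were in it. BCAN stood at 15.4 to 34.1 TPM, and ABCB5 had 0 to 6 reads. The other markers, MITF and MLANA among them, were not analysed here. BRAF, the target of the drug, had 460 to 713 reads.

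Cells answer broken DNA with 2 related kinases. ATM is activated at double-strand breaks, while ATR, carried by ATRIP, is activated by stretches of single-stranded DNA at stalled replication forks. Both phosphorylate checkpoint proteins, p53 among them. Breaks in cells that have copied their DNA can be mended by homologous recombination, in which BRCA1, held with BARD1 in a ubiquitin ligase, promotes the trimming of the ends and BRCA2 acts in a later step. BRIP1 is a helicase that binds BRCA1, and BLM is a helicase that takes apart recombination intermediates. The BRCA1-A complex holds BRCA1 at ubiquitin marks near breaks, with BRCC3 as its deubiquitinase and BABAM1 as a scaffold. Many recombination genes are expressed mainly in dividing cells and are known targets of E2F transcription factors.

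The promoters of the members are shown first. They are ordered by the levels described below, by which 5 genes were far lower in A375+VEM and 5 were not. Windows of 300 bases, from 250 before to 50 after the transcription start, were taken from RefSeq on GRCh38.p14. All 10 members matched, with 13 windows, since ATM, ATRIP and BRCA1 have a second start. The stretches printed here run from 120 bases before the start to 30 from it, 5′ to 3′ on the strand of the gene, with E2F-type letters in capitals. The first 5 are the genes that were lower, and ATM and ATR, from the 5 that were not, follow. The stretches lie at chr17:43125335-43125484 on the minus strand for BRCA1, chr2:214809654-214809803 minus for BARD1, chr13:32315388-32315537 plus for BRCA2, chr15:90717226-90717375 plus for BLM, chr17:61863499-61863648 minus for BRIP1, chr11:108222947-108223096 plus for ATM and chr3:142578704-142578853 minus for ATR.
BRCA1: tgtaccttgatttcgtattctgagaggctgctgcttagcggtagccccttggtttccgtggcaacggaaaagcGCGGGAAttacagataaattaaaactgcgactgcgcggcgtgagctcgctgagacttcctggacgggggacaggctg
BARD1: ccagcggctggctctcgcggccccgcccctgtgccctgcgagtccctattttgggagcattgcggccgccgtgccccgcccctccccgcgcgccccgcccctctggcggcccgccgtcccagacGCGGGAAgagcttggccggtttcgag
BRCA2: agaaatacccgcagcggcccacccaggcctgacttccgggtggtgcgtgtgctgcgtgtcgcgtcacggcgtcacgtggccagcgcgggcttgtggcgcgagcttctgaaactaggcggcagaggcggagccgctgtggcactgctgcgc
BLM: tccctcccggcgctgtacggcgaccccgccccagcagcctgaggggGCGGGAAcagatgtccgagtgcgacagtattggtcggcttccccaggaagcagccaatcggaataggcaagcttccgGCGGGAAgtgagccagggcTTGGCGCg
BRIP1: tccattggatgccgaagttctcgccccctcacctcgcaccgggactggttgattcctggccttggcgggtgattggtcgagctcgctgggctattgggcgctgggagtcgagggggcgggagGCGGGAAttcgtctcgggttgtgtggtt
ATM: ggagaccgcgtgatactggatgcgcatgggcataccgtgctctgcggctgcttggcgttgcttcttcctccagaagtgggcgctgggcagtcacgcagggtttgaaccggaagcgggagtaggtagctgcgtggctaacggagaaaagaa
ATR: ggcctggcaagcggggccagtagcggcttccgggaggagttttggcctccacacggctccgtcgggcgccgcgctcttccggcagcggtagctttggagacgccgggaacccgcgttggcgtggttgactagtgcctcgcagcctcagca

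The E2F-type letters searched were GCGGGAA, beside it GCGCCAA, and beside these GCGCGAA, each on both strands. They occurred in the windows of BARD1, BLM and BRIP1 and in 1 of the 2 windows of BRCA1. This is 4 of 13 member windows, against 11.0% of all 35116 windows. GCGGGAA began 47 bases before the start of BRCA1, 4 bases after that of BARD1 and 2 bases after that of BRIP1. BLM held it 74 bases before and 3 bases after its start, and also GCGCCAA, on the reverse strand, 22 bases after. GCGGGAA alone occurred in 6.55% of all windows. The BRCA2 window held none of these letters, and neither did those of ATM, ATR, ATRIP, BRCC3 and BABAM1. The other letters searched fell in both sets of genes. The CCAAT box, CCAAT, was found in 8 of 13 member windows, against 34.6% of all windows. These belong to ATM, ATRIP, BABAM1, BLM, BRCA1 and BRIP1. ETS-type letters, CCGGAAG, were found in 5 of 13 member windows, against 10.3% of all windows, in ATM, ATR, BABAM1, BLM and BRCA2. The CHR element, TTTGAA, was found in 2 of 13 member windows, against 15.2% of all windows, in ATM and BRIP1. In BLM, 1 ETS-type match shared 1 base with an E2F-type match, and no other matches overlapped. GC content ran from 51.7% in BABAM1 to 78.3% in BRCC3, beside a median of 58.7% over all windows. These are matches of letters, and no binding was measured. The sets of genes were formed from the levels in A375+VEM, and whether the letters bear on those levels was not tested.

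**Figure D1:**
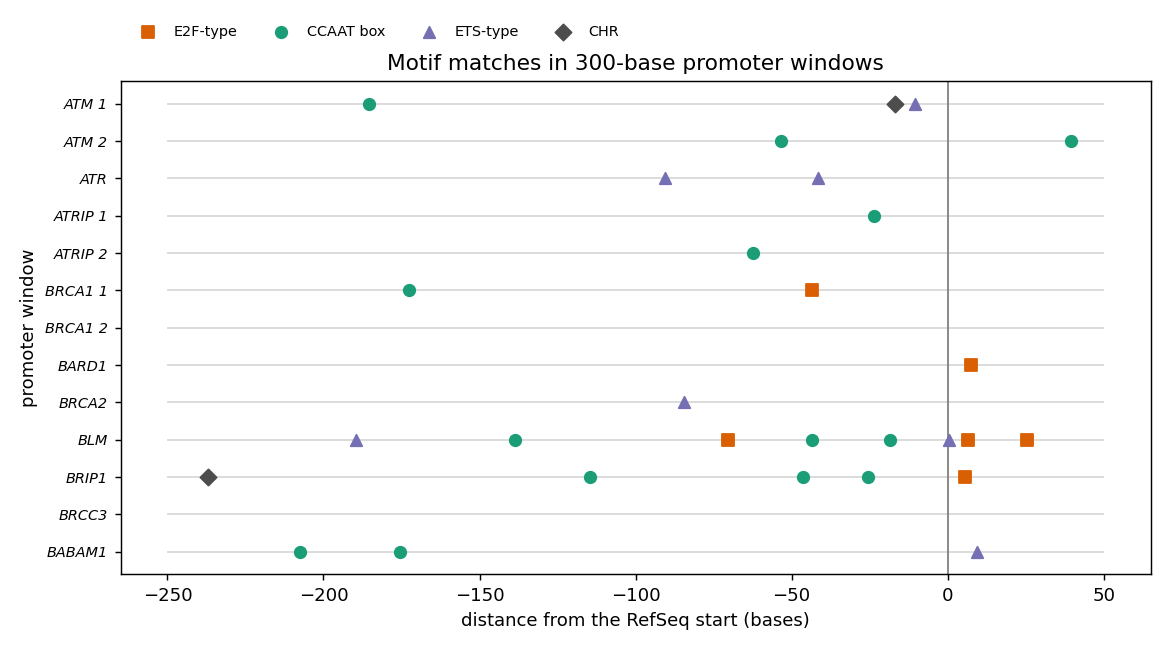
Motif matches in the 13 RefSeq promoter windows of the 10 genes, with distance from the start in bases on the horizontal axis and 1 line per window. Squares mark E2F-type letters, circles the CCAAT box, triangles ETS-type letters and diamonds the CHR element. Squares appear in the windows of BARD1, BLM and BRIP1, in 1 of the 2 windows of BRCA1 and in no other.

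The kinase genes ATM and ATR and the ATR partner ATRIP were expressed at similar levels per length and spanned 1.42-, 1.52- and 1.43-fold, respectively, from the lowest to the highest library. ATM (gene ID 472, hg19 chr11:108093559-108239826, plus strand) had 18.6 TPM in A375P and 23.8 in A375R, beside 17.5 in the DMSO library and 16.7 in A375+VEM, from 1748 to 2420 reads. A375R was the highest of the 4 and stood apart from A375P beyond counting error. A375P, A375+DMSO and A375+VEM each differed from the next in order by less than that error. Between the ends of that run, A375+VEM against A375P was at a ratio of 0.899 (0.843 to 0.959), an interval that leaves out 1. ATR (gene ID 545, hg19 chr3:142168077-142297668, minus strand) was at 19.8, 16.7, 13.0 and 13.0 TPM in the same order of libraries, from 851 to 1399 reads. A375P was the highest and A375R came next, and A375+DMSO and A375+VEM could not be separated, with a ratio of 1.00 (0.909 to 1.10). ATRIP (gene ID 84126, hg19 chr3:48488114-48507054, plus strand) was at 18.2, 18.8, 18.8 and 13.1 TPM, from 326 to 487 reads. A375+VEM was the lowest, and the other 3 libraries could not be separated.

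Reads of ATRIP may be shared with TREX1, which overlaps it in RefSeq and was not analysed here. Whether the counting used strand is not given in the sources used here. C11orf65 lies on the other strand of ATM, with 60581 bases in common in the deposited positions, and had 5 to 10 reads. In RefSeq, BRCA1 also overlaps NBR2 and the pseudogene BRCA1P1, and BRCA2 overlaps ZAR1L, none of which was analysed here. The RefSeq spans are on another genome version, and whether the deposited hg19 spans reach the same genes was not checked.

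The 5 recombination and helicase genes followed 1 order, with A375R highest, A375+DMSO and A375P next and A375+VEM far below. BRCA1 (gene ID 672, hg19 chr17:41196312-41277500, minus strand) had 1014 reads in A375P and 1151 in A375R, beside 1104 in the DMSO library and 163 in A375+VEM, which is 16.1, 20.2, 18.8 and 2.79 TPM. It was the most abundant of the 5 per length in every library, and its levels in A375R and A375+DMSO could not be separated, with a ratio of 1.08 (0.991 to 1.17). BARD1 (gene ID 580, hg19 chr2:215590370-215674435, minus strand) had 140, 312, 214 and 21 reads, or 2.97, 7.32, 4.86 and 0.48 TPM. BRCA2 (gene ID 675, hg19 chr13:32889617-32973809, plus strand) had 251, 509, 346 and 16 reads, or 2.57, 5.77, 3.80 and 0.18 TPM. In both genes all neighbours in the order were apart beyond counting error, and the level in A375P stood 6.18-fold (3.89 to 10.3) above A375+VEM for BARD1 and 14.5-fold (8.78 to 25.8) for BRCA2.

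The helicase gene BLM (gene ID 641, hg19 chr15:91260558-91358692, plus strand) had 242 reads in A375P and 381 in A375R, beside 272 in the DMSO library and 10 in A375+VEM, which is 5.85, 10.2, 7.04 and 0.26 TPM. Its span was the widest of the 10 genes, with 39.1-fold between A375R and A375+VEM. BRIP1 (gene ID 83990, hg19 chr17:59756547-59940920, minus strand) had 186, 408, 347 and 45 reads, or 2.66, 6.45, 5.31 and 0.69 TPM. Its neighbours in the order were also all apart beyond counting error, with A375R 1.21-fold (1.05 to 1.41) above A375+DMSO. Summed over the 5 genes, the level was 30.1 TPM in A375P and 49.9 in A375R, beside 39.8 in the DMSO library and 4.40 in A375+VEM.

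The genes of the BRCA1-A complex were ordered differently, with A375P or A375+VEM on top and A375R at the bottom. BABAM1 (gene ID 29086, hg19 chr19:17378185-17390162, plus strand) was the most abundant member, at 197.6 TPM in A375P and 167.5 in A375R, beside 187.9 in the DMSO library and 213.9 in A375+VEM, from 1942 to 2544 reads. BRCC3 (gene ID 79184, hg19 chrX:154299695-154351349, plus strand) was at 23.7, 16.3, 16.5 and 20.3 TPM, from 369 to 596 reads. For BRCC3 the levels in A375+DMSO and A375R could not be separated, and for BABAM1 those in A375P and A375+DMSO could not. A pseudogene of BRCC3, BRCC3P1, had 3 to 7 reads. The neighbour of BABAM1, ANKLE1, lies 2291 bases away and does not overlap it.

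**Figure D2:**
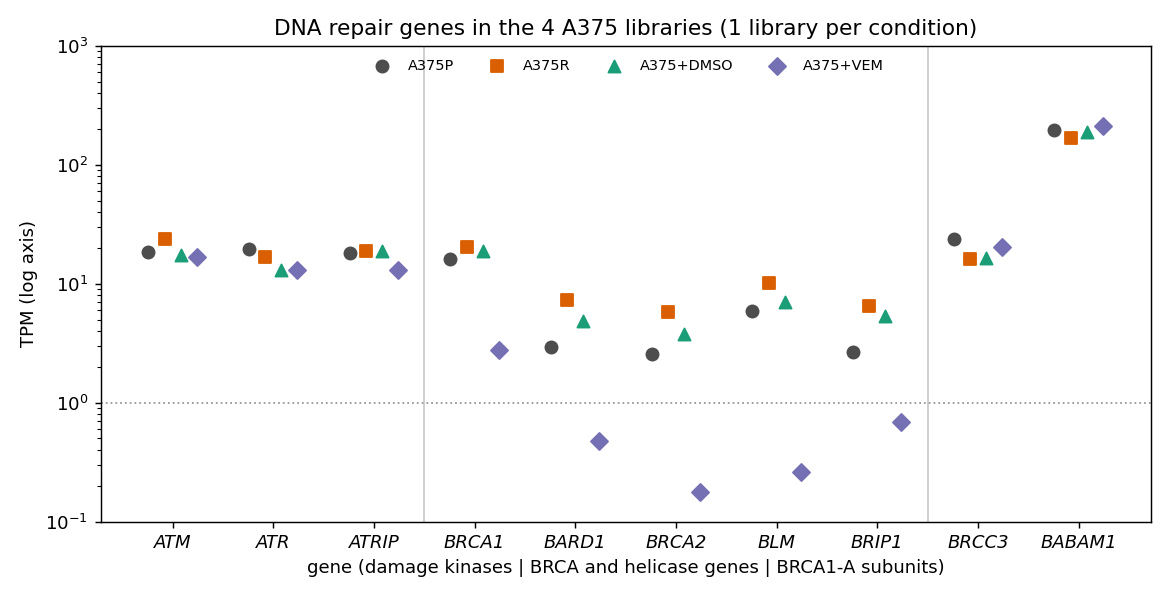
TPM of the 10 genes, on a log axis, in the 4 libraries, with 1 point per library and no error bars because there was 1 library per condition. The diamonds of A375+VEM lie between 0.18 and 2.79 TPM for the 5 genes in the middle and between 13.0 and 213.9 TPM for the other 5, and the dotted line marks 1 TPM.

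Exposure to vemurafenib for 48 h was compared with DMSO for the same time, which asks how drug-sensitive cells respond. BRCA1, BARD1, BRCA2, BLM and BRIP1 were lower past 1.5-fold in A375+VEM, and the other 5 members were not past it in either direction. Over all 1784 genes compared, 19.7% were lower and 26.5% higher by this rule. BLM was 27.0-fold lower (14.5 to 57.0), from 272 to 10 reads, and BRCA2 21.5-fold lower (13.0 to 38.0), from 346 to 16 reads. BARD1 was 10.1-fold lower (6.45 to 16.7), BRIP1 7.66-fold (5.60 to 10.7) and BRCA1 6.73-fold (5.70 to 7.98). On the scale of log2(TPM + 0.1) these were differences of -4.31, -3.82, -3.10, -2.77 and -2.71, and they ranked 10, 18, 30, 39 and 42 from the lowest of the 1784 genes. In a bulk culture, fewer cells of a type and less RNA per cell cannot be told apart.

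ATM and ATR, by contrast, were at ratios of 0.954 (0.893 to 1.02) and 1.00 (0.909 to 1.10) in A375+VEM against A375+DMSO, intervals that hold 1. ATRIP was lower than in A375+DMSO beyond counting error, at 0.698 (0.605 to 0.806), but not past the threshold, which it did pass under each of the 3 other scalings of the libraries (median ratio, TMM and DESeq2 size factors). BRCC3 and BABAM1 were slightly higher, at 1.23 (1.07 to 1.41) and 1.14 (1.07 to 1.21). The median log2 ratio was -3.10 over the 5 recombination and helicase genes, 0.00 over the other 5 and 0.11 over all genes compared. These 2 sets coincide with the genes past and short of the threshold in this comparison, so a gap between them is no separate result. The nearest intervals were those of BRIP1, with an upper bound of 0.179, and ATRIP, with a lower bound of 0.605. Both cover counting error only.

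The resistant strain was compared with the parental cells, to look for genes that go with resistance. BARD1, BRIP1, BRCA2 and BLM were higher past 1.5-fold in A375R, and no member was lower past it. Over the 1689 genes compared, 26.8% were higher and 17.5% lower. BARD1 was at a ratio of 2.47 (2.01 to 3.03), BRIP1 at 2.43 (2.04 to 2.90), BRCA2 at 2.24 (1.93 to 2.62) and BLM at 1.74 (1.48 to 2.06). BRCA1 was at 1.26 (1.15 to 1.37) and ATM at 1.28 (1.20 to 1.35), both higher beyond counting error and short of the threshold. ATRIP was at 1.03 (0.908 to 1.18). On the lower side stood ATR at 0.843 (0.777 to 0.913), BABAM1 at 0.847 (0.798 to 0.899) and BRCC3 at 0.685 (0.600 to 0.782), none past the threshold, though BRCC3 passed it where libraries were scaled by the median ratio, by TMM or by DESeq2 size factors. The median log2 ratio was 1.14 over the recombination and helicase genes, -0.24 over the other 5 and 0.10 over all genes compared.

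The drug-free cultures A375+DMSO and A375P were compared with each other. This comparison and that of A375R above share the A375P library, so the values of both move with it. BRIP1, at 2.00 (1.67 to 2.40), and BARD1, at 1.64 (1.32 to 2.04), were higher past the threshold in A375+DMSO, and ATR was lower past it, at 0.656 (0.602 to 0.714). Over the 1720 genes compared, 26.8% were higher and 18.9% lower. BRCA2 was at 1.48 (1.25 to 1.75), BLM at 1.20 (1.01 to 1.44), BRCA1 at 1.17 (1.07 to 1.27) and BRCC3 at 0.698 (0.612 to 0.794). A375+DMSO received solvent for 48 h and A375P was untreated, and with 1 library each an action of the solvent and a difference between cultures cannot be told apart.

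With the DMSO library as its control, 1 of the 4 members called in A375R stayed past the threshold. This was BRCA2, at a ratio of 1.52 (1.32 to 1.75) and 0.59 on the log2 scale, just over the threshold. BARD1, at 1.51 (1.26 to 1.80) and 0.58, fell just short of it on the scale with the pseudocount. BLM was at 1.45 (1.24 to 1.70) and BRIP1 at 1.21 (1.05 to 1.41), while BRCA1 was at 1.08 (0.991 to 1.17). ATM was at 1.35 (1.27 to 1.44) and ATR at 1.29 (1.17 to 1.41), and ATRIP, BRCC3 and BABAM1 were at 1.00, 0.982 and 0.891. Over the 1702 genes compared, 10.5% were higher and 9.99% lower. The 2 comparisons of A375R share its library.

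The lower levels in A375+VEM were past the threshold from either control. Against A375P, which shares its library with the comparison of A375R above, BLM, BRCA2, BRCA1, BARD1 and BRIP1 were at ratios of 0.0446, 0.0688, 0.173, 0.162 and 0.261, and ATR was also past the threshold, at 0.656. Over the 1782 genes compared, 25.3% were lower and 36.9% higher. ATRIP was at 0.722, BRCC3 at 0.857, ATM at 0.899 and BABAM1 at 1.08.

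**Figure D3:**
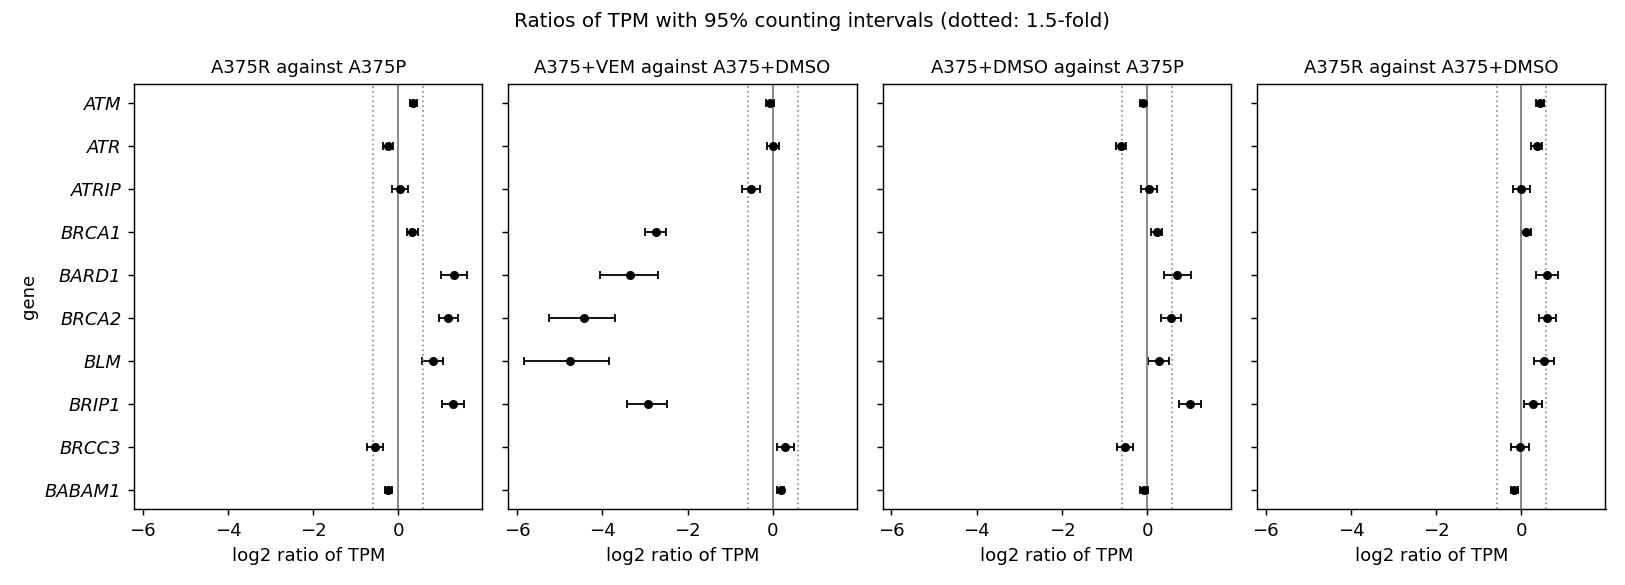
Log2 ratios of TPM for the 10 genes in 4 comparisons, with 95% counting intervals as bars and 1.5-fold as dotted lines. In A375+VEM against A375+DMSO the 5 genes from BRCA1 to BRIP1 lie below -2, apart from the others, and in A375R they lie on the higher side against A375P and nearer to 0 against A375+DMSO.

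Levels of genes whose products work together did not keep a fixed ratio over the libraries. BRCA1 stood at 5.42 times BARD1 per length in A375P (4.54 to 6.51), 2.76 times in A375R (2.43 to 3.14), 3.86 times in A375+DMSO (3.33 to 4.49) and 5.81 times in A375+VEM (3.67 to 9.63). The ratio was thus lowest in A375R, where BARD1 was highest, and its interval there overlapped none of the others. BRCA1 to BRCA2 ran from 3.50 (3.15 to 3.89) in A375R to 15.8 (9.41 to 28.2) in A375+VEM, with 4.93 (4.37 to 5.58) in A375+DMSO and 6.25 (5.44 to 7.20) in A375P. So BRCA2 was lower relative to BRCA1 in A375+VEM than in the other 3 libraries, beyond counting error.

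ATR to ATRIP was 1.09 (0.981 to 1.21) in A375P, 0.887 (0.794 to 0.992) in A375R, 0.690 (0.616 to 0.774) in A375+DMSO and 0.989 (0.869 to 1.13) in A375+VEM. ATM to ATR was 0.941 (0.879 to 1.01) in A375P and between 1.29 and 1.43 in the other 3 libraries, whose intervals overlap each other and not that of A375P. BRCC3 to BABAM1 was between 0.0881 and 0.120, highest in A375P.

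**Figure D4:**
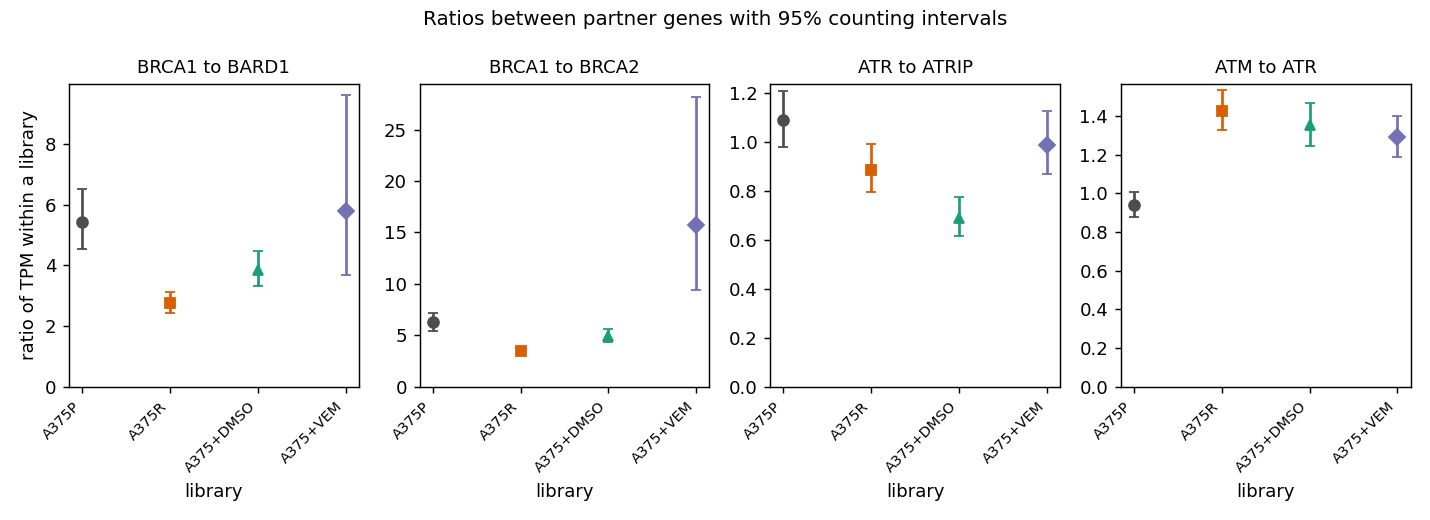
Ratio of TPM between 2 genes within each library, with 95% counting intervals as bars, for BRCA1 to BARD1, BRCA1 to BRCA2, ATR to ATRIP and ATM to ATR. BRCA1 to BRCA2 is highest in A375+VEM at 15.8, and ATM to ATR is lowest in A375P at 0.941.

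Genes of the table with the nearest pattern were sought for the 5 members whose log2(TPM + 0.1) spanned at least 1 over the 4 libraries, in a search of the 1699 genes whose mean was 1 TPM or more. Likeness was the root mean square difference of log2(TPM + 0.1) over the 4 libraries, each gene centred on its own mean. Nearest to BRCA1 were ALDH1L2 at 0.091, C19orf48 at 0.116 and C16orf52 at 0.185. ALDH1L2, a mitochondrial folate enzyme, had 38.0 TPM in A375P and 48.9 in A375R, beside 44.0 in the DMSO library and 5.83 in A375+VEM. Nearest to BARD1 were ANLN at 0.199, BRIP1 at 0.255 and APOBEC3B at 0.281, and nearest to BRCA2 were ARHGAP11A at 0.184, ANLN at 0.231 and ALMS1-IT1 at 0.269. ANLN encodes anillin, a scaffold of the contractile ring, and had 52.0, 95.6, 78.4 and 6.97 TPM. Nearest to BLM were ADM2 at 0.173, BUB1 at 0.231 and BRCA2 at 0.277, and nearest to BRIP1 were ABCC3 at 0.185, BARD1 at 0.255 and ANKRD33B at 0.257. Of these 15 places, 4 were held by genes of the cell division list below, which has 13 genes in the table, and 3 by other members. With a pseudocount of 1, 3 of the 15 (ALDH1L2, C19orf48 and ANKRD33B) were again among the nearest. None of these 3 is a member or on the cell division list. The measure rests on 4 libraries.

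Other DNA repair and checkpoint genes were taken from a list of 50 entries, 38 of which were in the table. In A375+VEM against A375+DMSO, 13 of the 38 were lower, 7 were higher and 18 were neither. The median log2 ratio was -0.12 beside 0.11 over all genes, of which 19.7% were lower and 26.5% higher. The lowest were ASF1B at -4.18, C17orf53 at -1.89, ATAD5 at -1.74, AUNIP at -1.58, AEN at -1.09 and ACTR5, of the INO80 remodeller, which was 2.01-fold lower. ASF1B, a histone chaperone of dividing cells, had 613 reads in A375P and 886 in A375R, beside 1085 in the DMSO library and 58 in A375+VEM. ATAD5, which unloads the replication clamp PCNA, had 270, 506, 495 and 143 reads, and C17orf53, a recombination factor also called HROB, had 245, 436, 309 and 81. On the higher side, where the genes named were chosen after their values were seen, AP5Z1 at 0.94 and BRPF3 at 0.90 were highest. ATMIN, a cofactor of ATM, was at 0.81, ASF1A, the paralog of ASF1B, at 0.80, and BRE, another BRCA1-A subunit now called BABAM2, at 0.72.

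In A375R against A375P, 6 of the 38 repair genes were higher, 8 were lower and 24 were neither, with a median of -0.14. Over all genes compared, 26.8% were higher and 17.5% lower. AUNIP, which takes part in end resection, was at 1.19, ATAD5 at 1.04 and C17orf53 at 0.97. C20orf196, a shieldin subunit also called SHLD1, was at -1.15, the p53-induced nuclease gene AEN at -0.92 and ASCC2, of a complex for alkylation damage, at -0.85. In A375+DMSO against A375P, 6 were higher and 14 lower, with a median of -0.24, beside 26.8% and 18.9% of all genes. AUNIP was at 1.36, ATAD5 at 0.96, ASF1B at 0.92, AEN at -1.97, AP5Z1 at -0.96 and ASCC2 at -0.88. In A375R against A375+DMSO, 3 were higher and 1 lower, beside 10.5% and 9.99% of all genes. AEN was at 1.05, ANKLE1 at 0.70 and C20orf196 at -0.83.

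Except in A375R against A375+DMSO, genes of cell division moved, by their median, in the same direction as the recombination genes. The list was chosen with earlier results of these data known, so it is given for its values and supports nothing. Of the 13 in the table, from a list of 15, 12 were lower in A375+VEM than in A375+DMSO and 0 higher, with a median of -3.79. Over all genes compared, 19.7% were lower and 26.5% higher. The lowest were BIRC5 (survivin) at -6.11, the spindle gene ASPM at -5.82, the checkpoint kinase genes BUB1B at -5.80 and BUB1 at -4.85, and the Aurora kinase genes AURKB at -5.21 and AURKA at -3.79, while BUB3 was at -0.56. In A375R against A375P, 8 were higher and 0 lower, with a median of 0.64, beside 26.8% and 17.5% of all genes. The higher genes were led by ASPM at 2.08 and BORA at 1.02, then ARHGEF39 at 0.91, ANLN at 0.88, ARHGAP11A at 0.82 and AURKB at 0.70. In A375+DMSO against A375P, which shares the A375P library, 8 were higher and 0 lower, beside 26.8% and 18.9% of all genes. The median was 0.67, and ASPM was at 2.17. In A375R against A375+DMSO, 0 of the 13 passed the threshold in either direction, while 10.5% of all genes were higher and 9.99% lower. The median was 0.03 beside 0.53 over the recombination and helicase genes and 0.02 over all genes. The part of the share of dividing cells in the levels of the recombination genes was not tested.

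The 10 genes of the p53 target list are induced by p53, on which ATM and ATR act. In A375+VEM against A375+DMSO, 2 were higher and 2 lower, with a median of 0.05. These counts were near the shares over all genes, 26.5% higher and 19.7% lower. ABHD4 was at 0.98, the apoptosis gene BAX at 0.59 and AEN at -1.09. In A375R against A375P, 0 were higher and 7 lower, with a median of -0.83, beside 26.8% and 17.5% of all genes. BTG2, an antiproliferative gene, was at -2.31, BLOC1S2 at -1.32, AEN at -0.92, BAX and BBC3 (PUMA) both at -0.90, and ABHD4 at -0.76. In A375+DMSO against A375P, with the same A375P library, 8 were lower and 0 higher, beside 18.9% and 26.8% of all genes. The median was -1.03, with BTG2 at -2.76, AEN at -1.97, BLOC1S2 at -1.72, ACER2 at -1.61, BBC3 at -1.03 and BAX at -1.02. In A375R against A375+DMSO, AEN at 1.05 and ACER2 at 0.96 were higher and 0 were lower, with a median of 0.38. Over all genes, 10.5% were higher and 9.99% lower. AEN was highest in A375P, at 262 TPM against 138 in A375R, beside 66.5 in the DMSO library and 31.3 in A375+VEM. ABHD4, ANKRA2 and APAF1, named after their values were seen, were not highest in A375P, and the other genes of the list were. APAF1 was lowest there. AEN and ASCC3 stand in both this list and the repair list.

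**Figure D5:**
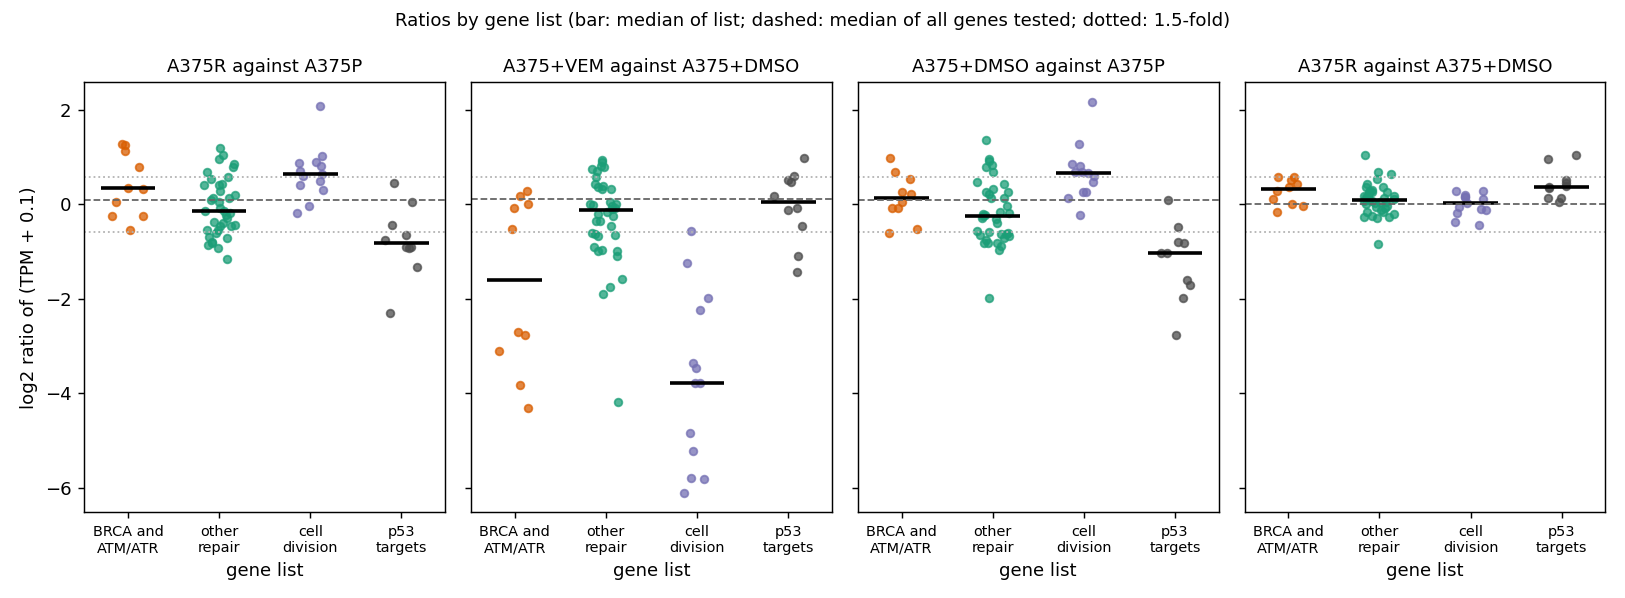
Log2 ratios of (TPM + 0.1) for the 10 genes and 3 gene lists in 4 comparisons, with 1 point per gene, bars at each list's median, a dashed line at the median of all genes compared and dotted lines at 1.5-fold. In A375+VEM against A375+DMSO the cell division genes lie lowest, with a median of -3.79, and the 10 repair genes form 2 groups.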

How the data were processed

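RNA of 4 A375 libraries was sequenced. The authors deposited 1 table with a read count per gene and library, in whole numbers without normalization, and a TPM, which corrects the count for gene length and for the total of the library. The submitters' processing notes name HISAT2, TopHat2, Bowtie2, HISAT and hg19, with no versions or roles, and the counting program and its use of strand are not given in the sources used here. The table used here is an alphabetical portion with 2864 genes with values, and 1 incomplete row was left out. Columns of the authors' own comparisons were not used.

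Conditions were taken from the labels. Pairs of libraries were compared by the ratio of (TPM + 0.1), with 1.5-fold as the threshold, where either library of the pair held the gene at 1 TPM or more. No test could be made with 1 library per condition. Intervals at 95% are exact Clopper-Pearson intervals on reads, put on the TPM scale by each library's own constant. The precision is set by the reads of a gene, 10 to 2544 per library for the members. The members and gene lists were chosen with earlier results of these data known. The genes named were all 10 members, up to 6 genes per list and pair with the largest ratio past the threshold and a TPM of at least 5 in 1 library, the 3 genes nearest in pattern to a member with a log2 span of at least 1, and pseudogenes and overlapping genes of members. Others are marked where named.

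Alternatives tried were a pseudocount of 1 or of 0.01, no filter, a TPM of at least 5, a threshold of 2-fold, scaling to a median ratio of 1, by edgeR's TMM or by DESeq2 size factors, a call that also requires the counting interval to leave out 1, and the other drug-free library as control. The steps were tested on simulated data. Promoters were read from a RefSeq table on GRCh38.p14, and positions of genes are as deposited, on hg19. Scaling factors came from edgeR 4.0.16 and DESeq2 1.42.0 under R 4.3.3. The rest was done in Python 3.11.15 with pandas 2.3.3, numpy 2.4.6 and scipy 1.17.1, and plots with matplotlib 3.10.9.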

Additional observations from a re-analysis of the deposited data

Results flagged for a closer look

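In 4 of the 10 genes the resistant strain and the acute exposure were past 1.5-fold on opposite sides of their controls. None of the other members passed the threshold in both comparisons. BRCA1, for example, was at 0.33 and -2.71. The remaining members also had opposite signs, but not all of these signs stand beyond counting error. The counting interval held 1 for ATM and ATR in A375+VEM against A375+DMSO and for ATRIP in A375R against A375P. The share of all genes called in opposite directions was not counted, so whether 4 of 10 is unusual cannot be judged. Taken singly, 26.8% of the genes compared were higher in the resistant strain than in the parental cells. After 48 h of drug, 19.7% were lower than in the DMSO library. On the log2(TPM + 0.1) scale BARD1 was at 1.27 in the resistant strain, against A375P, and at -3.10 after 48 h of drug, against A375+DMSO. BRCA2 was at 1.14 and -3.82, BLM at 0.79 and -4.31, and BRIP1 at 1.25 and -2.77. With 1 library per condition the difference between the 2 comparisons was not tested. With A375+DMSO as the control of A375R the same 4 genes were at 0.58, 0.59, 0.53 and 0.28, of which BRCA2 alone passed 1.5-fold.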

How the results depend on the processing

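In A375+VEM against A375+DMSO the count of lower members was 5 or 6 under each alternative but the filter at a TPM of 5, which leaves out BARD1 and BRCA2 and gave 3. In A375R against A375P the 4 higher calls became 1 with A375+DMSO as the control, and the count of lower members went from 0 to 1 under a median ratio of 1, TMM and DESeq2 size factors. In A375+DMSO against A375P the 2 higher calls became 1 with a pseudocount of 1, 1 at a TPM of at least 5 and 0 at 2-fold, and the 1 lower call became 0 with a pseudocount of 1, 0 at 2-fold and 2 under the 3 scalings. In A375R against A375+DMSO the 1 higher call became 0 with a pseudocount of 1, at 2-fold or with a median ratio of 1, and 2 with a pseudocount of 0.01 or DESeq2 size factors. At 2-fold the repair list gave 2 higher and 1 lower in A375R against A375P, 0 and 5 in A375+VEM against A375+DMSO, 1 and 1 between the drug-free libraries, and 1 and 0 in A375R against A375+DMSO. The cell division list gave 2 higher in A375R and 2 in A375+DMSO, both against A375P. The p53 list gave 2 lower in A375R against A375P, 0 higher in A375+VEM (1 with a median ratio of 1) and 1 higher in A375R against A375+DMSO. Apart from thresholds and filters, the cause was not tested. No called value of a member changed sign under the 3 scalings or 2 pseudocounts. TMM moved the median log2 ratio of all genes in A375+VEM against A375+DMSO from 0.11 to -0.04. Of 40 log2 ratios of single members, 6 left their counting interval under a median ratio of 1, 3 under TMM, 4 under DESeq2 size factors, 6 with a pseudocount of 1 and 0 with 0.01. No paired analysis was possible because there was 1 library per condition, and for the same reason no library could be left out. Low reads limit BLM, BRCA2 and BARD1 in A375+VEM, at 10, 16 and 21.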
